A study of Mus musculus with 4 samples.

Results

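The genes described are the subunits and inhibitors of NF-kB that could be measured in single mouse regulatory T (Treg) cells: the subunit genes Nfkb1, Nfkb2, Rel and Relb, the cytoplasmic inhibitors Nfkbia and Nfkbie, the nuclear IkB proteins Nfkbid, Nfkbiz and Bcl3, and the feedback enzyme Tnfaip3. These 10 genes were chosen by name from the 22056 genes measured, with earlier results of these data known. All 10 were present in both tissues at 5 UMIs (unique molecular identifiers, 1 per captured RNA molecule) per 1000000 (CPM) or more. Live cells carrying CD4, TCRβ and YFP were sorted at above 95% purity from C57BL/6 mice, and 10x Genomics 3' libraries of version 3.1 chemistry were made from them. There were 4 libraries, 1 per group: lymph node (LN) labelled ICOS FC and LN labelled ICOS WT, both from the cervical draining nodes at day 1 of an oxazolone challenge, and spleen labelled ICOS FC and spleen labelled ICOS WT, both at steady state. ICOS FC mice are ICOS-deficient by their labels, and every group carries the YFP that the sort used. The sources used here give neither the alleles behind the ICOS deficiency and the YFP nor the deleted part of Icos, the ages of the mice or how many mice gave each library. Tissue and challenge change together, so the LN and spleen groups differ in both, which cannot be told apart.

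NF-kB proteins are transcription factors held in the cytoplasm by IkB inhibitors until receptor signals, from the T cell receptor, CD28 or members of the TNF receptor family, lead to the inhibitors' destruction. Several inhibitors are themselves NF-kB targets, so that the pathway limits itself. In Treg cells, the Rel protein (c-Rel) and the nuclear inhibitor encoded by Nfkbid are known for their part in switching on Foxp3, the gene that defines these cells. ICOS is related to CD28 and gives T cells a second, costimulatory signal.

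The LN libraries labelled ICOS FC and ICOS WT held 2066 and 1897 cells with 17330489 and 15045805 UMIs, and the spleen libraries labelled ICOS FC and ICOS WT held 5917 and 4995 cells with 28256866 and 27183614 UMIs. The median cell had 6789, 6591, 4361 and 5044 UMIs in the same order. Foxp3 stood at 53.2 to 72.2 CPM in all 4 libraries. Icos itself stood at 928 CPM in the LN under the ICOS FC label and 599 CPM under ICOS WT, and at 258 CPM and 112 CPM in the spleen, higher under ICOS FC in each tissue. This goes against the label unless the altered allele still yields 3' transcript, and an exchange of labels cannot be told apart from that, so each direction below is between libraries as labelled. At most 30 cell barcodes were shared by any pair of libraries, the LN pair, which is 1.58% of the smaller library. With 1 library per group there is no spread between replicates and no test. Brackets after a log2 ratio hold its exact 95% interval from a conditional Poisson model, which covers counting error only. A gene was called higher or lower when its ratio reached 1.5-fold (0.58 on the log2 scale), its interval was clear of equality and 1 library had at least 5 CPM.

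Because several of these genes are known NF-kB targets, the sequence at their starts was searched for NF-kB motifs. RefSeq windows on GRCm38.p6 that run from 250 bases before to 50 bases after a gene start were found for 7 of the 10 genes, all but Nfkb1, Relb and Nfkbiz. The windows below are those of the genes on which the results turn, printed 5′ to 3′ in the direction of transcription. Capitals mark matches, on either strand, to the NF-kB consensus and, in Tnfaip3, to the AP-1 motif TGANTCA, which FOS and JUN proteins bind. Overlapping matches are printed as 1 run.
Tnfaip3 (chr10:19015361-19015660, minus strand): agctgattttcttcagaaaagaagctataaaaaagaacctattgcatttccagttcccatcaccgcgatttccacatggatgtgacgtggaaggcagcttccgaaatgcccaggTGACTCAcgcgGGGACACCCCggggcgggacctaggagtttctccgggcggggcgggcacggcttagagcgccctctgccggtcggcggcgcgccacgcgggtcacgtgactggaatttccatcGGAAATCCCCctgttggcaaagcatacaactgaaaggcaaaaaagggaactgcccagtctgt
Nfkbia (chr12:55492598-55492897, minus strand): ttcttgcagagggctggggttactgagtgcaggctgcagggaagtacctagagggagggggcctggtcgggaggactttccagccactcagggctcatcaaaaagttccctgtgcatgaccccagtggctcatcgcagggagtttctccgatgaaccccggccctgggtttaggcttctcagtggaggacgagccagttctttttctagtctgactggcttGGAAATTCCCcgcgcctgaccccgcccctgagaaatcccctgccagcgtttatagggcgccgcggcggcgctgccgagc
Nfkbid (chr7:30422156-30422455, plus strand): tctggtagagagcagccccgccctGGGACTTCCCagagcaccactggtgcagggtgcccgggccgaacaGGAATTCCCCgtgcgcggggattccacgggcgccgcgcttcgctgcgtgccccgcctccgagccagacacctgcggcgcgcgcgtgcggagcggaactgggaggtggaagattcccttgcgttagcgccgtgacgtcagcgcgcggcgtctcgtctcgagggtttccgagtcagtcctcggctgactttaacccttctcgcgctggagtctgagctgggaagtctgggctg
Nfkb2 (chr19:46304487-46304786, plus strand): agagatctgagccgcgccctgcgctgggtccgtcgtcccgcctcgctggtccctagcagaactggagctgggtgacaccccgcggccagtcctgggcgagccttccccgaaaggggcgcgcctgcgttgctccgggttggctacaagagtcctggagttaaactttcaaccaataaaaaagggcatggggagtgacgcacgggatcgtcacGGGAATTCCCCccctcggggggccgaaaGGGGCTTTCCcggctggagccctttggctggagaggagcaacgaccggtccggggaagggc
Bcl3 (chr7:19822706-19823005, minus strand): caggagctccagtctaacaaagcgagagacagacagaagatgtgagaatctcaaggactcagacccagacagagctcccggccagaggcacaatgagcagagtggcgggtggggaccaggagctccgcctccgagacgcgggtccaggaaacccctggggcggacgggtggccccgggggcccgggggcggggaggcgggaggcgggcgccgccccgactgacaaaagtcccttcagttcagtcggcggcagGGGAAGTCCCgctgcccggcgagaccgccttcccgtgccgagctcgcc
An NF-kB match lay in the window nearest the annotated gene start for 6 of the 7 genes, against 8.46% of all 32817 windows. For Nfkbid the window nearest the start had no match, and the one printed belongs to another of its 3 RefSeq starts. Tnfaip3 carried the AP-1 match at position -136 and NF-kB matches at positions -125 and -12, counting the RefSeq start as 0. For Tnfaip3, Nfkb2 and the printed window of Nfkbid, the RefSeq start lay 247, 417 and 674 bases inside the GENCODE span given below. The marked matches of these genes lie within that span, as does the Bcl3 match, which begins at position 2. Among the nearest windows, Nfkbie also had an AP-1 match, which makes 2 of 7 genes, against 7.81% of all windows. A match is a run of letters, and whether any protein sat there was not measured.

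In the spleen the subunit genes stood at nearly the same level under both labels. Gene positions are those of GENCODE M21 on GRCm38. Nfkb1 (chr3:135584655-135691547) encodes p105, the precursor of p50, and it had 141 CPM in the library labelled ICOS FC and 145 CPM in the one labelled ICOS WT. Nfkb2 (chr19:46304320-46312385) encodes p100, which is both an inhibitor and the precursor of p52 in the non-canonical arm, and it had 23.2 CPM under ICOS FC and 23.1 CPM under ICOS WT. Rel (chr11:23736847-23770970) had 62.3 CPM under ICOS FC and 61.5 CPM under ICOS WT. Relb (chr7:19606217-19629438), the partner of p52, had 37.1 CPM under ICOS FC and 36.2 CPM under ICOS WT. The counting intervals of the paired libraries overlapped for each of the 4 genes, and the widest of the ratios' intervals, that of Nfkb2, ran from -0.16 to 0.16 on the log2 scale.

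The LN gave the same picture between labels. Nfkb1 had 146 CPM under ICOS FC and 152 CPM under ICOS WT, with a log2 ratio of -0.06 [-0.14, 0.02]. Nfkb2 had 45.1 CPM under ICOS FC and 43.1 CPM under ICOS WT, with a log2 ratio of 0.07 [-0.09, 0.22]. Rel had 74.3 CPM under ICOS FC and 78.6 CPM under ICOS WT, and Relb had 48.7 CPM under ICOS FC and 48.5 CPM under ICOS WT. All 4 intervals of the ratios held equality, so no difference between labels was detectable for the subunit genes at this depth. Rela, the remaining subunit gene, and Nfkbib, the remaining classical inhibitor gene, were not called in any comparison. Between labels, the Rela interval lay below equality in the spleen, at -0.13 [-0.24, -0.02]. That of Nfkbib lay above equality in the LN, at 0.15 [0.007, 0.29].

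Tnfaip3 differed most between the spleen libraries among the 10 genes. The gene, at chr10:19000910-19015657, encodes A20, a ubiquitin-editing enzyme that shuts down signals to NF-kB and is itself an NF-kB target. It had 1107 UMIs and 39.2 CPM in the spleen library labelled ICOS FC, against 599 UMIs and 22.0 CPM in the one labelled ICOS WT. The log2 ratio was 0.83 [0.69, 0.98], a 1.78-fold difference. Tnfaip3 was the 1 gene of the 10 called higher, where 1.07% of the 8406 genes tested were higher, and no gene of the 10 was called lower, where 0.559% of those genes were. The median ratio of the 10 genes was 0.01, beside -0.03 for all genes tested. With every cell thinned to 2000 UMIs, 7.38% [6.71, 8.08] of cells had a Tnfaip3 UMI under ICOS FC and 3.93% [3.41, 4.52] under ICOS WT (Clopper-Pearson intervals at 95%). Unthinned, these shares were 14.8% and 9.61%. No cell type that should lack Tnfaip3 was among the clusters, so the share that free RNA gives is not known. The lowest shares in the spleen, those of the Foxp3-low cluster 4, were 4.60% and 1.77% after thinning. The intervals of 3 of the 10 ratios lay above equality, those of Tnfaip3, Nfkbia and Nfkbiz, and 0 lay below, where 12.1% and 19.3% of all genes lay above and below.

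Over whole libraries, the same gene went the other way in the LN, by less. Tnfaip3 had 24.1 CPM in the LN library labelled ICOS FC and 29.8 CPM in the one labelled ICOS WT, a log2 ratio of -0.30 [-0.50, -0.11] that did not reach the call. After thinning, 5.48% [4.53, 6.57] of LN cells under ICOS FC and 6.13% [5.07, 7.33] under ICOS WT had a Tnfaip3 UMI, with overlapping intervals. The LN ratio minus the spleen ratio was -1.13 [-1.37, -0.89]. Across the 4 libraries, spleen under ICOS FC stood alone at the top and the counting intervals of LN under ICOS FC and spleen under ICOS WT overlapped. With all LN clusters given equal weight, the LN ratio was 0.06. The clusters' shares of cells differed between the LN libraries, cluster 2 holding 10.7% of cells under ICOS FC and 20.6% under ICOS WT, and cluster 3 14.2% and 7.22%.

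**Figure D1:**
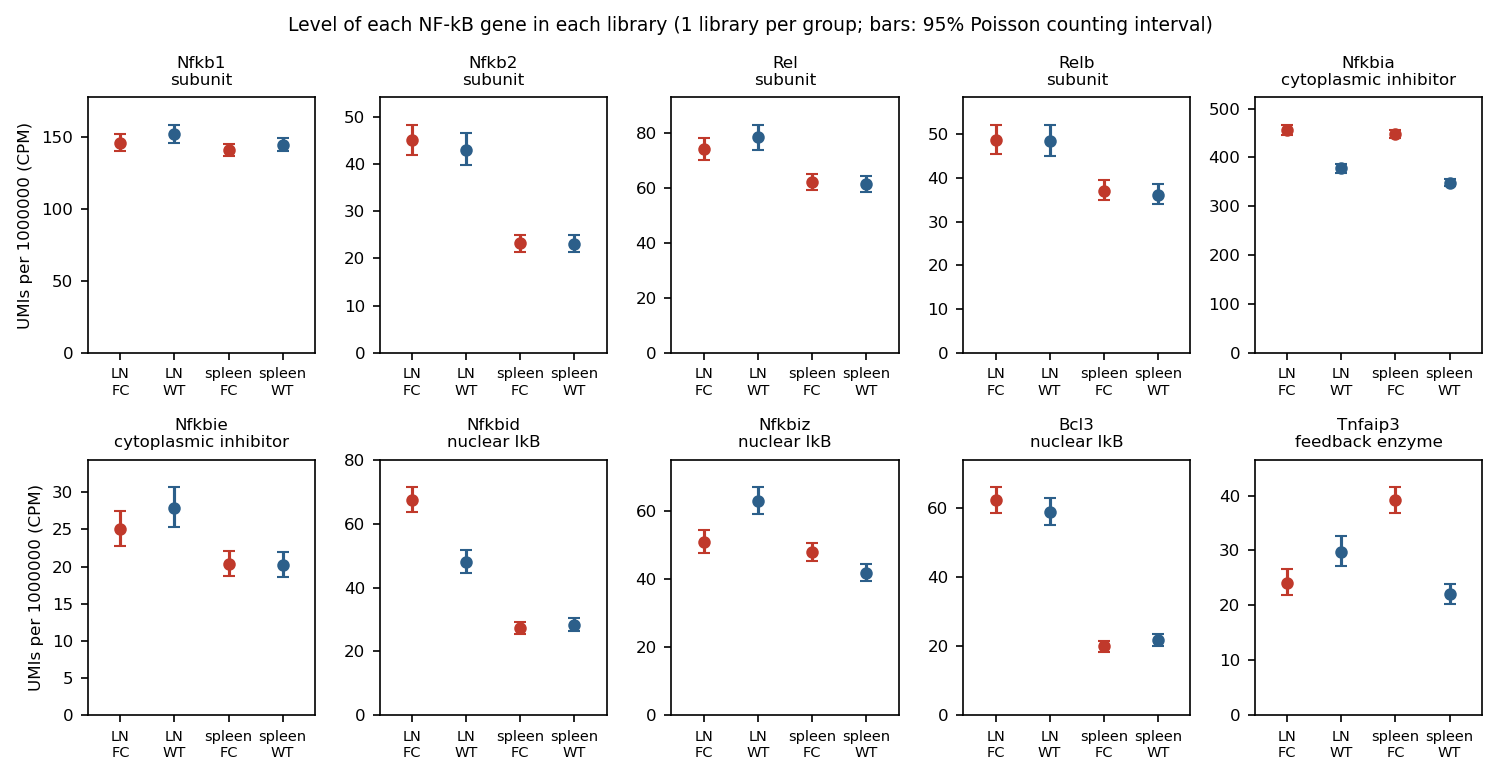
Level of each of the 10 genes in each library, in UMIs per 1000000 (CPM) on an axis from 0 of its own, with red points for libraries labelled ICOS FC, blue points for those labelled ICOS WT and bars for the 95% Poisson counting interval. By their points, all genes but Nfkbia and Tnfaip3 stood higher in both LN libraries than in both spleen libraries, with the largest ratios in Nfkb2, Nfkbid and Bcl3. The intervals of the tissue ratios of Nfkb1 under both labels, and of Nfkbiz under ICOS FC, held equality. Nfkbia followed the label in both tissues, and the top Tnfaip3 point, at 39.2 CPM, belongs to spleen under ICOS FC.

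Genes that tissue handling can induce moved with the same libraries. Of 15 dissociation stress genes, 13 were measured, and in the spleen 5 were higher under ICOS FC while 0 were lower. Their median ratio was 0.45 on the log2 scale. Fos had 75.7 CPM under ICOS FC and 16.3 CPM under ICOS WT, Fosb had 29.3 and 9.93 CPM, and Jun had 185 and 82.5 CPM, in the same order. In the LN 0 were higher and 4 lower, with a median of -0.29, and Jun had 55.2 CPM under ICOS FC and 102 CPM under ICOS WT. Summed over the list, the level was 4262 CPM in the LN under ICOS FC, 4268.5 CPM in the LN under ICOS WT, 5334 CPM in the spleen under ICOS FC and 3977 CPM in the spleen under ICOS WT. The part of handling in the Tnfaip3, Nfkbia and Nfkbiz values was not tested.

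**Figure D2:**
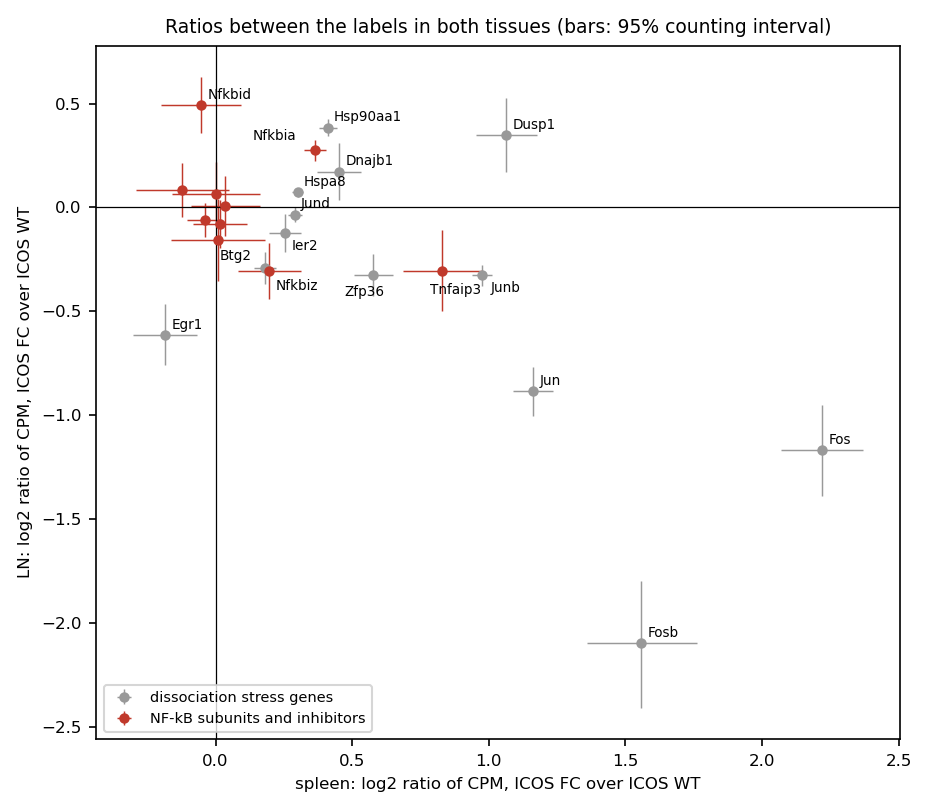
Log2 ratios of CPM, ICOS FC over ICOS WT, in the spleen (horizontal axis) and in the LN (vertical axis), for the 10 NF-kB genes in red and 13 dissociation stress genes in grey, with 95% counting intervals as bars. Tnfaip3, at 0.83 in the spleen and -0.30 in the LN, lay in the lower right with Fos, Fosb, Jun, Junb and Zfp36, while Nfkbia lay above 0 on both axes and Nfkbid lay above 0 on the LN axis with a spleen interval that held 0.

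Over whole libraries, Nfkbia was the inhibitor whose difference followed the label in both tissues. The gene, at chr12:55489410-55492647, encodes IkBα, the inhibitor that is destroyed first and resynthesized fastest after stimulation. It had 457 CPM in the LN library labelled ICOS FC and 378 CPM in the one labelled ICOS WT, a log2 ratio of 0.27 [0.23, 0.32]. In the spleen it had 448 CPM under ICOS FC and 348 CPM under ICOS WT, a log2 ratio of 0.36 [0.33, 0.40]. Both intervals lay above equality, and both folds, 1.21 and 1.29, stayed under the call. After thinning, 45.9% and 40.5% of LN cells and 48.4% and 40.2% of spleen cells had an Nfkbia UMI under ICOS FC and ICOS WT. The 2 tissues' ratios differed by -0.09 [-0.15, -0.03]. Within the deposited clusters, the Nfkbia interval lay above equality in 5 of the 6 spleen clusters compared. In spleen cluster 5 it lay below, at -0.13 [-0.27, -0.003]. In the LN the interval lay above equality in 4 of 8 clusters, and it held equality in clusters 1, 2, 3 and 6. Nfkbie (chr17:45555703-45563169) encodes IkBε, and its ratio intervals held equality in both tissues. It had 25.0 CPM under ICOS FC and 27.9 CPM under ICOS WT in the LN, and 20.3 CPM under ICOS FC and 20.2 CPM under ICOS WT in the spleen.

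The nuclear IkB genes differed from each other. They encode proteins that bind NF-kB dimers on DNA and can raise as well as lower transcription. Nfkbid (chr7:30421732-30428746), which encodes IkBNS, had 67.6 CPM in the LN library labelled ICOS FC and 48.1 CPM in the one labelled ICOS WT, a log2 ratio of 0.49 [0.36, 0.63], which at 1.41-fold was under the call but reached it in 3 of 12 alternatives, at up to 0.80 in cells with a Foxp3 UMI. In the spleen it had 27.3 CPM under ICOS FC and 28.3 CPM under ICOS WT, a log2 ratio of -0.05 [-0.20, 0.09]. The LN ratio was the larger by 0.54 [0.35, 0.74]. In each LN library the 1% of cells with most Nfkbid UMIs held 25.4% of them, against 8.58% to 19.4% for the other 9 genes. In the spleen that share for Nfkbid was 26.7% under ICOS FC and 31.4% under ICOS WT. For UMIs so concentrated the Poisson intervals of both tissues, and the interval of the difference between tissues, are too narrow. After thinning, 7.77% of LN cells under ICOS FC and 7.28% under ICOS WT had an Nfkbid UMI, with overlapping intervals, while the intervals of the summed levels were apart.

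Nfkbiz (chr16:55811375-55838899), which encodes IkBζ, had 51.0 CPM under ICOS FC and 63.0 CPM under ICOS WT in the LN, and 48.0 CPM under ICOS FC and 41.8 CPM under ICOS WT in the spleen. Its log2 ratios were -0.30 [-0.44, -0.17] in the LN and 0.20 [0.08, 0.31] in the spleen, on opposite sides of equality and both under the call. Bcl3 (chr7:19808462-19822770) had 62.2 CPM under ICOS FC and 58.8 CPM under ICOS WT in the LN, and 19.9 CPM under ICOS FC and 21.6 CPM under ICOS WT in the spleen, and both of its intervals held equality. In the LN 0 of the 10 genes were therefore called between labels, or 1 in the alternatives that call Nfkbid, where 1.93% of 8694 genes were higher and 2.22% lower, and the median of the 10 was -0.03 beside -0.04 for all genes. The intervals of 2 ratios lay above equality, Nfkbia and Nfkbid, and of 2 below, Nfkbiz and Tnfaip3, where 16.3% and 23.5% of all genes lay above and below. Over the 10 genes, the interval of the LN minus spleen difference lay above 0 for Nfkbid alone and below 0 for Tnfaip3, Nfkbiz and Nfkbia, where 13.7% and 16.2% of 8249 genes lay above and below.

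**Figure D3:**
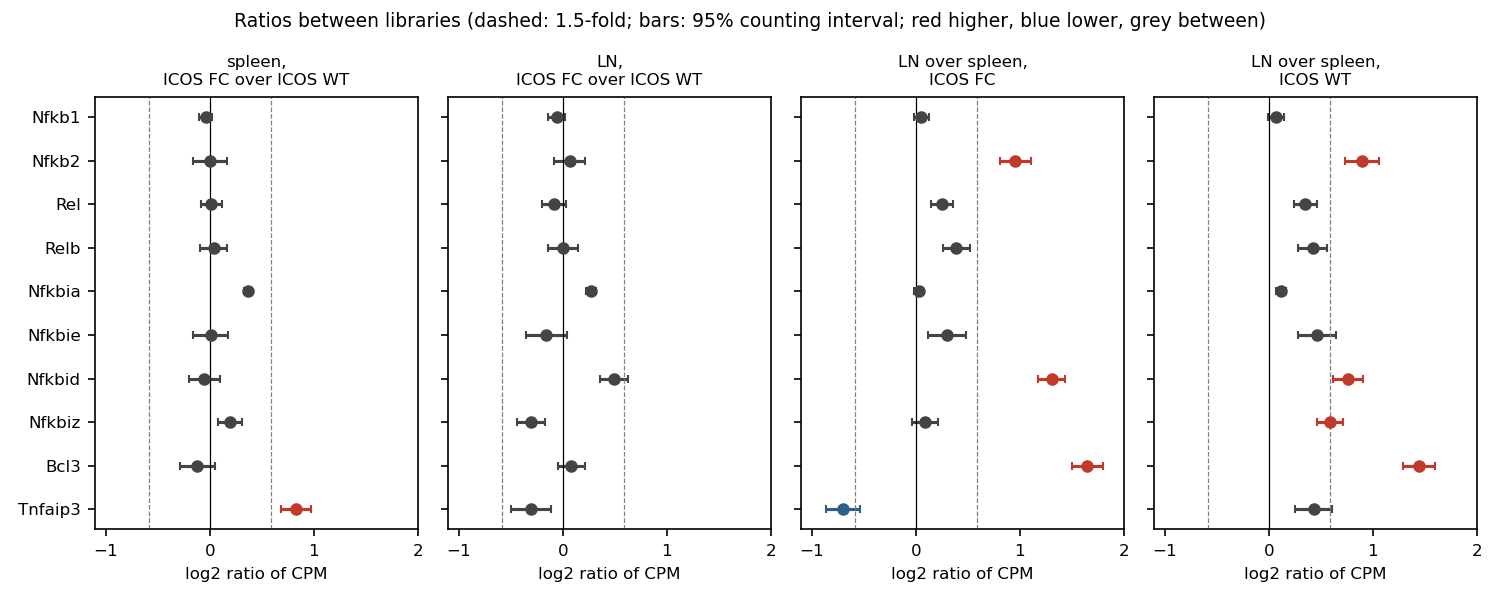
Log2 ratios of CPM for the 10 genes in each of the 4 comparisons, with bars for the 95% counting interval, dashed lines at 1.5-fold and red or blue points for genes called higher or lower. Between labels the 1 call is Tnfaip3 in the spleen at 0.83, and between tissues Bcl3 lies farthest to the right at 1.65 under ICOS FC and 1.44 under ICOS WT.

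Between tissues, Bcl3, Nfkbid and Nfkb2 were called higher in the LN under both labels. Bcl3, whose protein binds p50 and p52 dimers, stood at 62.2 CPM in the LN and 19.9 CPM in the spleen under ICOS FC, and at 58.8 CPM and 21.6 CPM under ICOS WT. The log2 ratios were 1.65 and 1.44, or 3.13-fold and 2.72-fold, and no interval bound was under 1.29. Nfkb2 was higher by 0.96 [0.81, 1.11] under ICOS FC and by 0.90 [0.74, 1.06] under ICOS WT, and Nfkbid by 1.31 [1.17, 1.44] and 0.76 [0.61, 0.91]. Each of these 3 genes had a higher level in either LN library than in either spleen library. The same held, with smaller ratios, for Nfkb1, Rel, Relb, Nfkbie and Nfkbiz, and not for Nfkbia and Tnfaip3. The share of all genes with this order was not computed. The interval of the tissue ratio held equality for Nfkb1 under both labels and for Nfkbiz under ICOS FC. Nfkb1, at 0.05 under ICOS FC and 0.07 under ICOS WT, was under the medians of all genes, 0.12 and 0.13. Its ratio kept its sign in 6 and 7 of 11 alternatives, in the same order. Under both labels 10.7% of 8569 genes were called higher. Of all genes, 15.6% of 8697 were higher and 4.22% lower under ICOS FC, and 13.7% of 8723 were higher and 2.67% lower under ICOS WT.

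Other genes differed between tissues under 1 label or by little. Nfkbiz was called higher under ICOS WT at 0.59 [0.47, 0.72], just past the 1.5-fold line, and had 0.09 [-0.03, 0.21] under ICOS FC. Tnfaip3 was called lower under ICOS FC at -0.70 [-0.87, -0.54] and had 0.43 [0.25, 0.61] under ICOS WT. The Tnfaip3 call ended in 3 of 11 alternatives, at -0.43 in thinned cells. Of the 13 dissociation stress genes, 0 were higher and 9 lower in the LN under ICOS FC, with a median of -0.88, and 2 were higher and 2 lower under ICOS WT, and their part in the Tnfaip3 values was not tested. Rel had ratios of 0.26 and 0.35 and Relb of 0.39 and 0.42 under ICOS FC and ICOS WT, and Nfkb1 had 0.05 and 0.07. In all, 3 genes were higher and 1 lower under ICOS FC, with a median of 0.28, and 4 were higher and 0 lower under ICOS WT, with a median of 0.45. The intervals of 6 ratios lay above equality and of 1 below under ICOS FC, where 43.7% and 21.5% of all genes did, and of 9 above and 0 below under ICOS WT, where 43.9% and 16.5% did. The median of all genes tested was 0.12 under ICOS FC and 0.13 under ICOS WT. With TMM factors, which lower these ratios by 0.14 and 0.15, Bcl3 stood at 1.51 and 1.29, Nfkb2 at 0.82 and 0.75, and Nfkbid at 1.17 and 0.61, all still called, while Nfkbiz under ICOS WT was under the call at 0.44. Under ICOS WT the call of Nfkbid ended in 3 of 11 alternatives, at 0.34 at the lowest, and that of Nfkb2 in 1, at 0.38 in thinned cells. Each spleen and LN library enters 2 of the 4 comparisons, so the comparisons are not independent of each other.

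Within the tissues, the levels varied between the deposited clusters. Since the cells were clustered on genes that may include these, the cluster levels are a description. With both labels pooled, the lowest level of each of the 10 genes in the spleen was that of cluster 4, with an interval that overlapped the next cluster's for 7 of them. Within single libraries the order at the low end differed for Nfkbid, Rel and Tnfaip3 under ICOS FC and for Relb under ICOS WT. The cells of cluster 4 had 4.03 CPM of Foxp3 against 64.2 CPM in the other spleen cells. Pooled in the same way, Nfkb1, Nfkb2, Rel, Nfkbie and Nfkbid were highest in the spleen in cluster 5 (TCR-activated-like, led by Egr and Nr4a genes and the chemokine genes Ccl3 and Ccl4), and Relb, Nfkbia, Nfkbiz, Bcl3 and Tnfaip3 in cluster 1 (follicular Treg-like). Cluster 1 was led by Sostdc1, Tox2 and Pdcd1 but also by Lag3, Il10 and Cd83, and 7 follicular and 11 effector Treg markers were at least 2-fold higher in it than in the other spleen cells. Under ICOS WT alone, Nfkbia stood at 520 CPM in cluster 1 and 596 CPM in cluster 5, and Tnfaip3 at 30.8 CPM in cluster 1 and 40.7 CPM in cluster 5, so the pooled rank of these genes is not that of each library. The pooled counting intervals of clusters 1 and 5 overlapped for Nfkb1, Nfkb2, Relb, Nfkbie and Tnfaip3. The interval of cluster 6 also overlapped that of the highest cluster for Nfkbie, Nfkbiz and Tnfaip3, and that of cluster 2 did for Tnfaip3.

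Nfkbid varied most between clusters. In the spleen it had 135 CPM in cluster 5, 38.7 CPM in cluster 1 and 14.9 to 18.3 CPM in the other 5 clusters, a 9.02-fold span. In the LN it had 366 CPM in cluster 7, 106 CPM in cluster 4 and 56.7 CPM in cluster 0, and 17.5 CPM in cluster 1, the lowest, a 20.9-fold span. LN cluster 7 is unnamed: it was led by Egr3, Egr2 and Nr4a3 and also by Cd8a, Cd8b1, Klrd1 and Klrk1, and its CD8 T and NK cell markers summed to 660 CPM under ICOS FC and 618 CPM under ICOS WT, against 87.7 CPM or less in every other LN cluster. LN cluster 4, led by Shmt1, Hk2 and Srm, had the deepest cells, with medians of 12166 UMIs under ICOS FC and 13388.5 UMIs under ICOS WT. The span of the other 9 genes between clusters was 2.87-fold to 4.25-fold in the spleen and 2.95-fold to 5.53-fold in the LN.

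**Figure D4:**
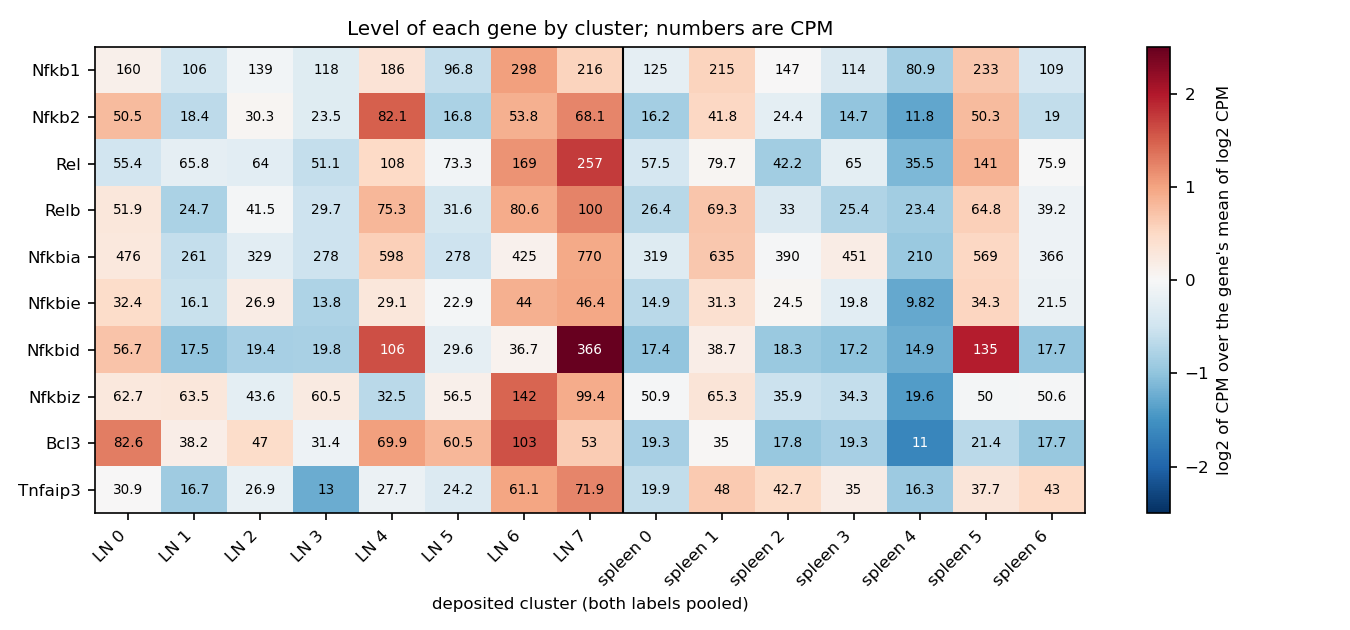
Level of each gene in each deposited cluster with both labels pooled, printed in CPM and coloured by the log2 distance of that level from the gene's own mean over the 15 clusters. Nfkbid stands out in LN cluster 7 (366 CPM) and spleen cluster 5 (135 CPM), and the spleen cluster 4 column is low for all 10 genes.

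In the LN, cluster 6 ranked first for Nfkb1, Nfkbiz and Bcl3, at 298, 142 and 103 CPM, and for Nfkbiz its interval overlapped that of cluster 7. Its cells were the shallowest, with median counts of 1787.5 UMIs under ICOS FC and 2022 UMIs under ICOS WT, and MHC class II genes led it. For Bcl3, the interval of cluster 6 overlapped that of cluster 0 (effector Treg-like, with Il1rl1, Cxcr6 and Ccr2), which had 82.6 CPM. It also overlapped those of clusters 4 and 5. Nfkb2 was highest in cluster 4 at 82.1 CPM, with an interval that overlapped those of cluster 7 at 68.1 CPM and cluster 6 at 53.8 CPM. Rel, Relb, Nfkbia, Nfkbie, Nfkbid and Tnfaip3 were highest in cluster 7, with an interval that overlapped that of cluster 6 for Relb, Nfkbie and Tnfaip3. The cluster 7 interval also overlapped that of cluster 4 for Relb and that of cluster 0 for Nfkbie.

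The higher Tnfaip3 level in the spleen library labelled ICOS FC was called in 4 of the 6 clusters compared. In cluster 0, led by Gata1, Gpr83 and Bcl2, Tnfaip3 had 241 UMIs and 25.1 CPM under ICOS FC against 154 UMIs under ICOS WT. It had 61.5 and 30.8 CPM in the follicular Treg-like cluster 1, and 56.7 and 29.2 CPM in the effector Treg-like cluster 2, in the same order. In the Foxp3-low cluster 4 it had 25.2 CPM under ICOS FC and 9.17 CPM under ICOS WT. The log2 ratios in clusters 0, 1, 2 and 4 were 0.74, 1.00, 0.96 and 1.46, each called. In cluster 3 (led by Sox4 and Satb1) the ratio was 0.31 [-0.12, 0.74], and in the TCR-activated-like cluster 5 it was -0.23 [-0.77, 0.30], neither clear of equality. Summed stress genes were higher under ICOS FC in all 6 of these clusters, cluster 3 at 4831 CPM against 3564 CPM and cluster 5 at 7148 CPM against 6337 CPM included. In the LN, Tnfaip3 was called lower under ICOS FC in cluster 1 at -0.86 [-1.52, -0.23] and in the follicular Treg-like cluster 2 at -0.85 [-1.53, -0.21], on 27 to 84 UMIs per library. Summed stress genes there had 3123 CPM under ICOS FC against 3671 CPM under ICOS WT in cluster 1, and 3470 against 3655 CPM in cluster 2. These sums were higher under ICOS FC in LN clusters 3, 5 and 7. The Tnfaip3 ratio was -0.34 [-0.67, -0.01] in LN cluster 0, under the call, and -0.16 in cluster 3. It was above 0 in LN clusters 4, 5, 6 and 7, at 0.006, 0.78, 0.28 and 0.37. The intervals of clusters 3 to 7 held equality. The part of the stress genes in the cluster values was not tested.

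Spleen cluster 5 and LN cluster 7, both led by Egr and Nr4a genes, went opposite ways for Nfkbid. In spleen cluster 5 it had 102 CPM under ICOS FC and 168 CPM under ICOS WT, a log2 ratio of -0.73 [-1.01, -0.45]. In LN cluster 7 it had 488 CPM under ICOS FC and 262 CPM under ICOS WT, a ratio of 0.90 [0.59, 1.20] from 57 and 66 cells. In spleen cluster 5, Rel and Nfkbiz were lower under ICOS FC as well, at -0.69 [-0.96, -0.41] and -0.70 [-1.17, -0.23]. There the TCR-induced genes summed to 852 CPM under ICOS FC and 1388 CPM under ICOS WT, while in LN cluster 7 they summed to 2168 CPM and 2250 CPM. The part of that sum in the cluster 5 values was not tested. Without spleen cluster 5 and LN cluster 7, a choice made after seeing the data, the Nfkbid ratio between labels was 0.48 in the LN and 0.23 in the spleen, against 0.49 and -0.05 with all cells.

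The LN interferon response-like cluster 5 had 3 of the 10 genes higher under ICOS FC, where 2.52% of all genes were. Nfkbia had 360 CPM under ICOS FC and 211 CPM under ICOS WT there, a ratio of 0.77 [0.48, 1.06], Bcl3 had 77.7 and 46.4 CPM, and Nfkbid had 40.3 and 20.8 CPM from only 27 and 17 UMIs. In spleen cluster 4 another 3 were higher, where 1.5% of all genes were, in spleen cluster 5 there were 3 lower, where 3.2% were, and in LN cluster 1 there were 2 lower, where 2.89% were. Of 60 pairs of a gene and a spleen cluster, 6 were higher and 3 lower, where 1.94% and 2.61% of all pairs were. Of 80 pairs in the LN, 4 were higher and 5 lower, where 3.17% and 3.36% of all pairs were. The pairs not yet named were Nfkbie at 0.77 and Nfkbid at 0.73 in spleen cluster 4, Bcl3 at -0.63 in LN cluster 1, Relb at -0.62 in LN cluster 3 and Nfkbiz at -0.67 in LN cluster 4. The spleen interferon response-like cluster 6 held 47 cells of the ICOS WT library and was not compared.

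**Figure D5:**
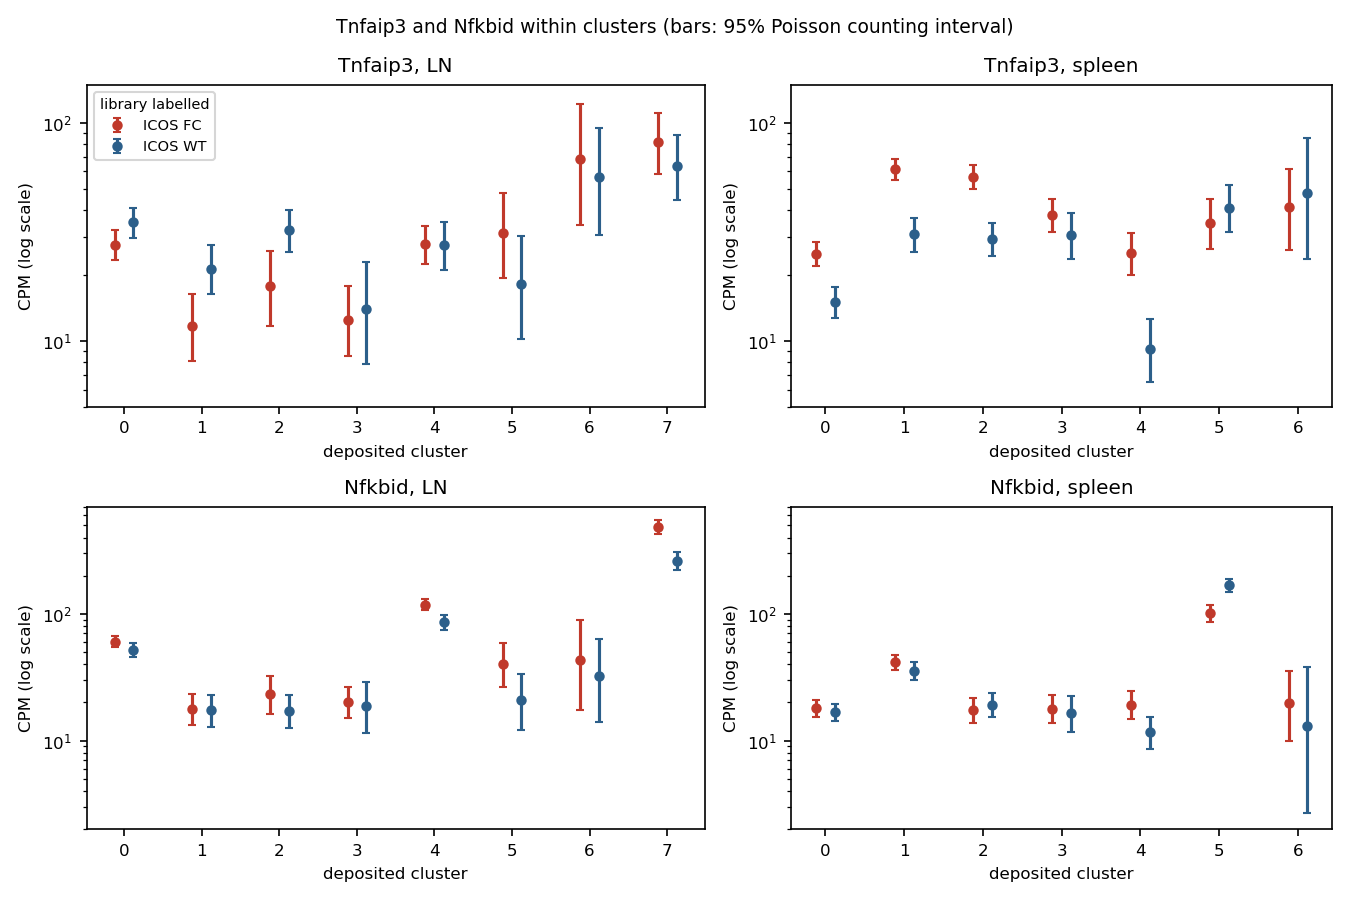
CPM of Tnfaip3 (upper row) and Nfkbid (lower row) on a log scale within each deposited cluster of the LN and the spleen, with the library labelled ICOS FC in red left of the one labelled ICOS WT in blue and bars for the 95% Poisson counting interval. Tnfaip3 intervals are apart in spleen clusters 0, 1, 2 and 4, and Nfkbid is higher under ICOS FC in LN cluster 7 and lower in spleen cluster 5.

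Elsewhere in the pathway, the differences between tissues were called mostly among receptors and reported targets. The pathway lists were chosen with earlier results of these data known, so their counts, here and between labels below, only describe. The shares of all genes called, set beside the counts, were 15.6% higher and 4.22% lower under ICOS FC and 13.7% higher and 2.67% lower under ICOS WT. Of 11 measured receptors that feed NF-kB, 7 were higher and 1 lower in the LN than in the spleen under each label, with medians of 0.96 under ICOS FC and 0.86 under ICOS WT. Tnfrsf9 (4-1BB) had 350 CPM in the LN and 55.1 CPM in the spleen under ICOS FC, and 285 CPM and 57.8 CPM under ICOS WT. Tnfrsf4 (OX40), Tnfrsf1b (TNFR2) and Il1rl1 (the IL-33 receptor) were higher under both labels too, with log2 ratios of 2.03, 1.47 and 1.74 under ICOS FC and of 1.85, 1.55 and 1.67 under ICOS WT. Of 17 measured NF-kB targets, 7 were higher under ICOS FC and 9 under ICOS WT and 0 lower under either, Il2ra, Irf4, Gadd45b and Cxcl10 among them. With TMM factors, Cd83 was also lower under ICOS FC, and under ICOS WT 6 targets and 6 receptors were higher, without Bcl2l1, Bcl2a1d, Irf1 and Il18r1. Of 13 and 14 measured IKK and adaptor genes, 0 were called under ICOS FC and 2 under ICOS WT, Malt1 and Rnf31 (Malt1 alone with TMM factors), and of 5 genes of the non-canonical arm Birc2 alone was called, lower at -0.60 under ICOS FC. Of 13 other negative regulators, Tnip3 and N4bp1 were higher under both labels. N4bp1 had 70.7 CPM in the LN and 33.9 CPM in the spleen under ICOS FC, and 63.9 CPM and 34.0 CPM under ICOS WT.

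Between labels, 1.07% of all genes were called higher in the spleen and 0.559% lower, while in the LN 1.93% were higher and 2.22% lower. In the spleen 4 of 17 targets were higher under ICOS FC. Il10 had 6.87 CPM under ICOS FC and 1.18 CPM under ICOS WT, Cxcl10 had 26.6 and 9.38 CPM, Cd83 had 59.2 and 33.3 CPM, and Irf4 had 17.2 and 11.3 CPM, in the same order. Il18r1, an IL-1 family receptor gene, was lower at -0.61 [-0.73, -0.48], a call that ended under TMM factors. In the LN Cxcl10 and Cd83 were higher, at 0.79 and 0.59, and 0 were lower. No IKK or adaptor gene, gene of the non-canonical arm or other negative regulator was called between labels in either tissue, which with shares this small is near the background. Over the 4 libraries B cell markers summed to 72.9 to 198 CPM, myeloid markers to 119 to 165 CPM, CD8 T and NK markers to 26.6 to 57.4 CPM and stromal and endothelial markers to 49.0 to 66.6 CPM, and Pdpn, a stromal marker, was at 0 in all. Conventional CD4 T cell markers summed to 474 and 590 CPM in the LN and 699 and 764 CPM in the spleen under ICOS FC and ICOS WT. Few of these markers reached 5 CPM: 2 of 6 B cell, 1 or 2 of 8 myeloid, 2 or 3 of 7 CD8 T and NK, and 1 of 5 stromal and endothelial genes. The sums therefore do not give amounts of such cells. The B cell sum was 198 CPM in the LN and 76.4 CPM in the spleen under ICOS FC, and 164 CPM and 72.9 CPM under ICOS WT. Cd74 was the 1 B cell marker called between tissues. The part of that sum in the differences between tissues was not tested. Single markers moved with the label as well. Cd79b, a B cell gene, had 22.4 CPM under ICOS FC and 10.9 CPM under ICOS WT in the LN, with a log2 ratio of 0.84 in the spleen, while Cd79a was at 1.62 CPM or less in every library. In the LN the myeloid gene Lyz2 was higher under ICOS FC, at 5.54 CPM against 2.86 CPM under ICOS WT, and 3 of 6 measured conventional CD4 T cell markers were lower, Cd40lg, Igfbp4 and Dapl1. Dapl1 was lower in the spleen too, at 58.4 CPM under ICOS FC and 94.4 CPM under ICOS WT. The part of any such cells in the values between labels was not tested.

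Across 29 profiles of 1 cluster in 1 library, the genes whose levels were most like each of the 10 were taken from 5276 genes with a mean of at least 20 CPM, by Pearson correlation of log2(CPM + 1). The profiles share libraries, depth and the clustering, so these values only describe. Nfkb2 was most like Irf4 (0.95), M6pr (0.94) and Smarca5 (0.93). Nfkbid was most like Nr4a1 (0.93), Egr2 (0.91) and Tnf (0.90), and Rel like Tnf (0.87), Egr2 (0.82) and Nfkbid (0.81). Nfkbia was most like Cd83 (0.89), Tgif1 (0.88) and Nr4a1 (0.83). Relb was most like Nfkb2 (0.93), Smarca5 (0.91) and Hspa5 (0.91), and Nfkb1 like Hdac7 (0.92), Slc1a5 (0.90) and Hivep3 (0.90). Bcl3 was most like B2m (0.88), Stat3 (0.87) and Notch1 (0.86), and Nfkbiz like Arid5b (0.83), Prkch (0.81) and Map3k8 (0.80). Nfkbie was most like Icam1 (0.90), Phf6 (0.85) and Ptger4 (0.85), and Tnfaip3 like Nfkbie (0.83), Cdk17 (0.79) and Phf6 (0.76). Among the 10 genes themselves, Nfkb2 and Relb were the most alike pair, and Bcl3 with Tnfaip3 the least alike, at 0.30.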

How the data were processed

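Single-cell RNA was measured in 4 libraries of sorted Treg cells, 1 per group, so p-values were not computed. The deposited values, made by the authors, hold, for each gene and cell, ln(1 + UMIs scaled to 10000 per cell), a natural log recognised from the values. The tools named in the submitters' processing notes are Seurat 3.0, R 3.6.1 and Cell Ranger 4.0.0, with the build GRCm38.p6 (mm10); their roles and any doublet removal were not stated. No doublet caller or further cell filter was applied. The deposited cell tables name cells Control or KO, which were taken as ICOS WT and ICOS FC from the words alone. The authors' deposited counts of UMIs per cell, genes per cell and percent of mitochondrial counts, and their clusters, were used as given. The phase scores, other cluster numbers and map coordinates were not used here.

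Whole UMIs were recovered from 100% of values within 0.001, and all 10912 spleen and 3963 LN cells matched their deposited totals. Summed UMIs were divided by library totals (CPM). Ratios have exact conditional Poisson intervals, and shares have Clopper-Pearson intervals, at 95%; both cover counting error only. A difference between 2 ratios has a normal interval on the log scale. Clusters needed at least 50 cells of each library to be compared, and were called X-like only from a fixed marker list. Thinning to 2000 UMIs left out 59, 69, 155 and 89 shallower cells in LN ICOS FC, LN ICOS WT, spleen ICOS FC and spleen ICOS WT. The floor of 3 UMIs is 0.106 to 0.199 CPM.

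The 10 genes and the pathway lists were chosen with earlier results of these data known. All 10 genes are described; of other lists, at most 4 called genes are named per comparison, ranked by the interval bound nearest equality, with Icos and Foxp3 as checks and the 3 most alike genes for each of the 10. Zfp36, Cd79a and the leading genes of clusters were named after their values were seen. TMM factors came from edgeR 4.0.16 in R 4.3.3; the rest was done in Python 3.11.15 with numpy 2.4.6, scipy 1.17.1, pandas 2.3.3 and matplotlib 3.10.9. Gene positions are from GENCODE M21 and promoter windows from RefSeq on GRCm38.p6. Nfkb2 and Bcl3 overlap genes on the opposite strand and Nfkb1 an unclassified locus on its own strand, and the strand setting of the authors' counting was not stated. Alternatives were other scaling, level minimums, thinning, cell filters and cluster weights.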

Additional observations from a re-analysis of the deposited data

Results flagged for a closer look

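The ratio of ICOS FC to ICOS WT took opposite directions in the LN and the spleen for Tnfaip3 and for Nfkbiz. For Tnfaip3, the log2 ratio was -0.30 in the LN and 0.83 in the spleen, a difference of -1.13 [-1.37, -0.89]. For Nfkbiz, it was -0.30 in the LN and 0.20 in the spleen, a difference of -0.50 [-0.68, -0.33]. With 1 library per group, neither difference was tested against spread between animals, and the intervals cover counting error only. The LN side of both was under 1.5-fold, and that of Tnfaip3 stood at 0.06, on the other side of equality, when LN clusters were weighted equally. The intervals of the thinned shares of LN cells with a Tnfaip3 UMI overlapped between labels.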

How the results depend on the processing

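No paired analysis was possible because each group is 1 library with no replicate numbers. Tnfaip3 in the spleen was called higher under ICOS FC in all 12 alternatives, at 0.63 to 0.94. Counts of the 10 genes called that moved by over 1.5 times were these. In the LN, the count higher under ICOS FC became 1 in place of 0, Nfkbid, in cells with a Foxp3 UMI (0.80), under equal cluster weights (0.68) and with cells averaged by their own CPM (0.61). For LN over spleen under ICOS FC, the count lower became 0 in place of 1 in cells under 5% mitochondrial counts, in cells thinned to 2000 UMIs and with cells averaged by their own CPM, where Tnfaip3 stood at -0.58, -0.43 and -0.54. Under ICOS WT, the count higher became 2 in place of 4, leaving Nfkb2 and Bcl3, in cells with a Foxp3 UMI and, in an alternative added after seeing the data, without spleen cluster 4 and LN clusters 6 and 7. There Nfkbid stood at 0.35 and 0.34 and Nfkbiz at 0.38 and 0.39. Thinned, Nfkb2 under ICOS WT was at 0.38 and no longer called. Of the single ratios of the 10 genes over all comparisons and alternatives, called ones included, 366 kept within their main interval and 94 moved. No called value changed sign. The cause of these moves was not tested. Within clusters 18 pairs were called, and 17 with at least 100 cells required. Shares of cells were apart between labels for 4 pairs of gene and tissue thinned and 6 unthinned. The matching count over all genes was not made, so these counts describe the effect of thinning only.

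Scaling changed the split of all genes called. Against library totals, TMM factors gave 991 higher and 671 lower in place of 1356 and 367 for LN over spleen under ICOS FC, 824 and 467 in place of 1195 and 233 under ICOS WT, 198 and 142 in place of 168 and 193 for ICOS FC over ICOS WT in the LN, and 111 and 34 in place of 90 and 47 in the spleen. The alternatives that weight clusters or cells equally used the interval of the summed UMIs, moved to the new value, and the first was not run between tissues, whose clusters differ.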
